A study of Mus musculus with 12 samples.

Results

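The 6 genes described here, Mdm2, Mdm4, Ppm1d, Rchy1, Cop1 and Usp7, encode proteins that act on the tumour suppressor p53 or on its main inhibitor. They were found by gene ID in a table of transcript levels from irradiated mouse embryos: Mdm2 (ENSMUSG00000020184), Mdm4 (ENSMUSG00000054387), Ppm1d (ENSMUSG00000020525), Rchy1 (ENSMUSG00000029397), Cop1 (ENSMUSG00000040782) and Usp7 (ENSMUSG00000022710). These are 6 of the 53647 gene IDs in the table, and all 6 were among the 15535 genes that reached 1 TPM (transcripts scaled to a fixed total per library) in at least 2 libraries and were tested. All libraries came from whole mouse embryos at embryonic day 9.5. The labels give the genotypes p53 +/+, called wild type here, and p53 -/-, called knockout. Embryos of each genotype were untreated, or were irradiated in the pregnant mouse with 30 Gy of X-rays at 5 Gy per minute and collected after 1 h or 3 h. Each of the 6 groups holds 2 RNA-seq libraries, numbered 1 and 2 in the labels. The mouse strain, the construction of the knockout allele, the litter and whether embryos were pooled are not given in the labels, and the labels are also silent on whether a group's 2 libraries are different embryos. The p-values therefore measure only the spread between these libraries, which may be technical.

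p53 is a transcription factor that is stabilised after DNA damage and switches on genes of cell cycle arrest, repair and cell death. Some of its targets act back on it. MDM2 is a RING-type ubiquitin ligase that marks p53 for destruction, and MDM4 is its relative, which binds MDM2 and covers the part of p53 that activates transcription. PPM1D, also called WIP1, is a phosphatase that removes damage-induced phosphates from p53 and from the kinases upstream of it. RCHY1 (PIRH2) and COP1 are further ubiquitin ligases of p53. USP7 is a deubiquitinase that removes ubiquitin from p53, MDM2 and MDM4. Mdm2 and Ppm1d are established transcriptional targets of p53, and loss of Mdm2 is lethal to the early mouse embryo unless p53 is lost as well.

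Trp53, which encodes p53, was read first as a check of the labels. Libraries of the same time and number were paired across the labels. In 5 of 6 such pairs the Trp53 transcript was higher in the library labelled knockout, and there it went against the labels. The exception was the untreated pair numbered 2. No difference of Trp53 between the labels passed the test described below. The labels do not describe the allele, and it is not known whether the measured transcript spans the altered part of the gene. The 24 targets of p53 listed further on also went against the labels, with 18 called higher at 3 h under the knockout label. Among all genes tested 6.25% were called higher there. Under the wild-type label 0 of the 24 and 0% of all genes were called at 3 h, so that 0 is not particular to the targets. The list was chosen with earlier results of these data known. Whether the genotype labels or the columns of the table are exchanged cannot be told from these values. The groups are named by their labels throughout, and each direction rests on those names. In the untreated libraries labelled knockout Trp53 was at 265 and 79.1 TPM (numbers 1 and 2), and in the untreated libraries labelled wild type at 114 and 211 TPM. The 3 h libraries held 242 and 220 TPM under the knockout label, and 93.7 and 68.0 TPM under the wild-type label. The 1 h libraries held 250 and 210 TPM under the knockout label, and 114 and 66.8 TPM under the wild-type label. The untreated libraries of each label thus lay further apart in Trp53 than the irradiated ones. Whether each untreated group is of a single genotype was not tested.

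Because TPM is so scaled, sequencing depth is unknown, and no interval of counting error can be given. Between 13724 and 14357 genes reached 1 TPM in a library. On the first principal component (34.7% of the variance) both 1 h libraries numbered 2 stood apart, at 66.4 under the knockout label and 67.9 under the wild-type label, against -46.1 to 11.8 in the others. Markers of neural progenitors (5 of 5 genes), primitive erythroid cells (5 of 5), cardiac muscle (5 of 5), somites (4 of 4) and endothelium (4 of 4) were at 1 TPM or more in every library. These tissues belong to the whole embryo that the labels name. The trophoblast marker Tpbpa and the decidua markers Prl8a2 and Prl3c1 were at 0 TPM in all 12 libraries, and the 4 genes of the trophoblast and of the decidua list summed to at most 2.1 and 0.9 TPM. Among all genes tested, the median log2 fold change under the knockout label from untreated to 3 h was -0.12. Scaling the libraries by median-of-ratios size factors moved it to -0.0047 and the split of called genes from 971 higher and 912 lower to 1345 higher and 763 lower. In the comparison of the labels at 3 h the same scaling moved the split from 815 higher and 788 lower to 1180 higher and 552 lower.

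Mdm2 rose strongly after irradiation in the libraries labelled knockout, and under the wild-type label no rise was called. In the untreated libraries it was at 34.9 and 33.1 TPM under the knockout label and at 33.7 and 36.1 TPM under the wild-type label (numbers 1 and 2). These 4 values lay within 1.09-fold of each other. The 1 h values of Mdm2 were 55.2 and 70.1 TPM for the knockout label and 46.3 and 41.9 TPM for the wild-type label. By 3 h they were 293.5 and 306 TPM for the knockout label and 33.5 and 33.6 TPM for the wild-type label. Both 3 h libraries labelled knockout were thus above all other libraries, the highest of which held 70.1 TPM, and both 3 h libraries labelled wild type lay within the range of the 4 untreated ones. Against the untreated library of its own number, the 3 h level under the knockout label was 8.40 and 9.25 times as high. For the wild-type label these ratios were 0.994 and 0.929.

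Tests of these differences used limma on log2(TPM + 1), with Benjamini-Hochberg adjustment over the 15535 genes and a call at an adjusted p under 0.05. Fold changes on this scale understate the change of low genes. Under the knockout label Mdm2 rose from untreated to 3 h by 3.10 (SE 0.151, limma adjusted p = 2.242e-05). It rose by 2.25 from 1 h to 3 h (limma adjusted p = 7.593e-05). From untreated to 1 h its difference was 0.85, in the same direction in both numbers (limma adjusted p = 0.122). That difference passed when the replicate number was added as a block, which compares libraries of the same number (limma adjusted p = 0.0269). The block is given below only where it changes a call. Without both 1 h libraries numbered 2, which stood apart, the difference of Mdm2 was 0.68 at 1 h and 2.42 from 1 h to 3 h (limma adjusted p = 0.220 and 0.00134). The wild-type-labelled differences of Mdm2 were 0.33 at 1 h, -0.06 at 3 h and -0.38 from 1 h to 3 h, and none passed (limma adjusted p = 1, 1 and 0.812).

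Ppm1d rose as well, over a smaller range. Libraries labelled knockout held 23.3 and 23.8 TPM untreated, 35.95 and 35 TPM after 1 h, and 63.4 and 64.0 TPM after 3 h. Those labelled wild type held 22.4 and 23.1 TPM untreated, 24.9 and 25.8 TPM after 1 h, and 26.4 and 27.0 TPM after 3 h. The 3 h and 1 h libraries labelled knockout lay above all others. The 2 libraries of each group lay within 1.04-fold of each other, the closest agreement among the 6 genes. The rise from untreated to 3 h under the knockout label was 1.40 (SE 0.122, limma adjusted p = 0.000211), and from 1 h to 3 h it was 0.83 (limma adjusted p = 0.00351). At 1 h the difference from untreated was 0.57 (limma adjusted p = 0.196), and 0.0267 was the adjusted p with the replicate block. Leaving out both 1 h libraries numbered 2 gave 0.59 at 1 h and 0.81 from 1 h to 3 h (limma adjusted p = 0.257 and 0.0261). With the wild-type label both irradiated groups lay above the untreated group in both numbers, by ratios of 1.11 and 1.11 at 1 h and of 1.18 and 1.17 at 3 h. The 3 h difference of 0.22 (SE 0.122) did not pass (limma adjusted p = 1).

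**Figure D1:**
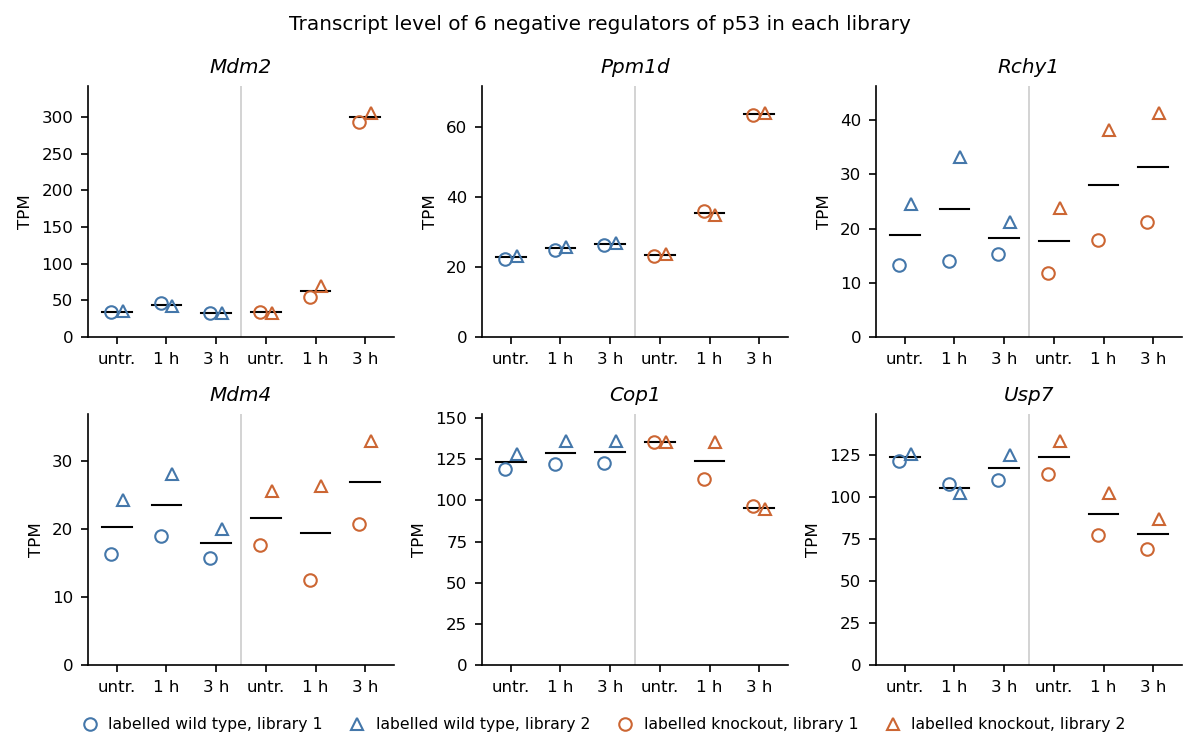
TPM (y axis, from 0, a separate scale for each gene) in each of the 12 libraries by labelled group (x axis; untr., untreated; blue, labelled wild type; orange, labelled knockout; circles, library 1; triangles, library 2; bars, means of 2). The 3 h libraries labelled knockout stand highest for Mdm2 (293.5 and 306 TPM) and Ppm1d (63.4 and 64.0 TPM), and lowest for Cop1 (96.3 and 94.5 TPM).

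Since Mdm2 and Ppm1d moved together, the sequences before their annotated starts are shown. They were taken from RefSeq on build GRCm38.p6, an earlier build than the GRCm39 of the authors' files, so no position is carried over. All 6 genes matched, with 8 windows of 300 bases (250 before to 50 after a start), and Mdm4 and Rchy1 had 2 windows each. p53 binds a pair of copies of a 10-base consensus, and a single copy is called a half-site. A half-site on either strand was found in the windows of Mdm2, Ppm1d and in 1 of the 2 windows of Rchy1, and in no window of Mdm4, Cop1 or Usp7. The best-known p53 response element of Mdm2 lies in its first intron, and a window at the annotated start was searched here. The 3 matches are shown within 30 bases in the direction of the gene, with the half-site in capitals. They begin 186, 132 and 90 bases before the start and lie at chr10:117710925-117710954 (minus strand), chr11:85311112-85311141 (plus strand) and chr5:91962627-91962656 (minus strand).
Mdm2: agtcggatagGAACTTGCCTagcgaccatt
Ppm1d: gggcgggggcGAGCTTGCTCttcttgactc
Rchy1: cactatgacaGAGCTTGTCTcctcaaggtg

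Of all 32851 RefSeq windows of this length, 2745 (8.36%) hold such a half-site. A full site, with a pair of half-sites and a spacer of up to 13 bases, occurs in 24 of them (0.0731%) and in none of the windows of the 6 genes. A match is only a match of letters, and the data hold no measurement of p53 binding. The window of Ppm1d also holds TGACGTCA, the consensus of the cyclic AMP response element, 85 bases before the start. This motif reads the same on both strands, does not overlap the half-site, was looked for after the window had been read, and occurs in 588 windows (1.79%). The 250 bases before each start are given for the pair of genes that rose, chr10:117710759-117711008 (minus strand) for Mdm2 and chr11:85311004-85311253 (plus strand) for Ppm1d, with these motifs in capitals.
Mdm2: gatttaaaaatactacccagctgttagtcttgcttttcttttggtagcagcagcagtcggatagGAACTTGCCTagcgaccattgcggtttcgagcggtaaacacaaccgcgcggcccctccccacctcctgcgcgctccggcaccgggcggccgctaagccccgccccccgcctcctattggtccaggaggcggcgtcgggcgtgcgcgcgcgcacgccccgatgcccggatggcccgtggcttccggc
Ppm1d: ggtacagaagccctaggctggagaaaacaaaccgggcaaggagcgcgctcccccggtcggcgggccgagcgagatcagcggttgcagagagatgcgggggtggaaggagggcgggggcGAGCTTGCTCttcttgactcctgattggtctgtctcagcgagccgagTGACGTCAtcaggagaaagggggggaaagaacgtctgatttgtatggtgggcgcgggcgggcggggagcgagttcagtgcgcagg

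The windows of all 6 genes held 43.0% to 86.0% G and C, against a median of 52.7% over all windows. The lowest was a window of Mdm4 and the highest that of Usp7.

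Mdm4, the partner of MDM2, was not called between untreated and irradiated libraries, and its values split by library number. In the order numbers 1 and 2, knockout-labelled libraries held 17.6 and 25.6 TPM untreated, 12.5 and 26.3 TPM after 1 h, and 20.7 and 33.0 TPM after 3 h. Wild-type-labelled libraries held 16.3 and 24.3 TPM untreated, 18.9 and 28.1 TPM after 1 h, and 15.7 and 20.1 TPM after 3 h. The library numbered 2 held the higher value in 6 of 6 groups, by 1.28 to 2.10 times, and all 6 groups overlapped with their neighbour in the order of the means. At 3 h under the knockout label the ratio to the untreated library of the same number was 1.18 and 1.29. The fitted difference was 0.29 (SE 0.395, limma adjusted p = 0.751), with a 95% interval from -0.61 to 1.19. It became -0.035 without the 3 h library labelled knockout numbered 2. From 1 h to 3 h the difference was 0.50 (limma adjusted p = 0.492), and it passed with the replicate block (limma adjusted p = 0.0428). It became -0.0062 without the 1 h library labelled knockout numbered 1, the lowest Mdm4 value of all, and 1.01 without both 1 h libraries numbered 2. A processed pseudogene named for Mdm4 was at 0 to 0.02 TPM and another that overlaps it, Gm29257, at 0 to 1.3 TPM, and reads of such copies may not be separable.

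Rchy1, the ligase known as PIRH2, showed the same split by library number. Its knockout-labelled values were 11.7 and 23.8 TPM untreated, 17.9 and 38.2 TPM after 1 h, and 21.2 and 41.3 TPM after 3 h. Its wild-type-labelled values were 13.3 and 24.4 TPM untreated, 14.0 and 33.2 TPM after 1 h, and 15.2 and 21.2 TPM after 3 h. Number 2 was higher in 6 of 6 groups, by 1.39 to 2.38 times, and neighbouring groups in the order of the means overlapped. Within numbers the knockout-labelled ratios to untreated were 1.52 and 1.60 at 1 h and 1.81 and 1.73 at 3 h. The wild-type-labelled ratios at 3 h were 1.14 and 0.867, one above and one below 1. The 3 h difference under the knockout label was 0.79 (SE 0.564, limma adjusted p = 0.463). It was 0.31 and 1.27 without the untreated library numbered 1 and 2 of that label, and 1.25 and 0.32 without the 3 h library numbered 1 and 2. With the replicate block the SE was 0.165 and the difference passed (limma adjusted p = 0.0100). Thap6 is annotated on the opposite strand over part of Rchy1 and was at 6.61 to 10.7 TPM, and the strand setting of the quantification is not given in the sources used here, so reads of the pair may not be separable.

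Cop1, also called RFWD2, was lower at 3 h in the libraries labelled knockout, short of the threshold. It held 136 TPM in both untreated libraries of that label, 113 and 135 TPM after 1 h, and 96.3 and 94.5 TPM after 3 h. In wild-type-labelled libraries it lay between 119 and 136 TPM in all 6 libraries. The 3 h libraries labelled knockout were the lowest of all 12, and the next lowest was the 1 h library labelled knockout numbered 1. The 3 h difference was -0.50 (SE 0.147, limma adjusted p = 0.0604), with ratios within numbers of 0.711 and 0.696. After median-of-ratios scaling the 3 h difference shrank to -0.368 (limma adjusted p = 0.1235), and it was called in 2 of the 18 alternatives. It passed with the replicate block (limma adjusted p = 0.00601). So did the difference of -0.37 from 1 h to 3 h (limma adjusted p = 0.155 without the block and 0.0218 with it). The latter difference was -0.24 without both 1 h libraries numbered 2.

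Usp7, the deubiquitinase of the group, was likewise lower under the knockout label after irradiation, short of the threshold. There it held 113 and 133 TPM untreated, 77.5 and 102 TPM after 1 h, and 68.6 and 86.7 TPM after 3 h. With the wild-type label it held 121 and 126 TPM untreated, 107 and 102 TPM after 1 h, and 110 and 124 TPM after 3 h. The 3 h and untreated libraries labelled knockout did not overlap, whereas the 1 h and 3 h libraries of that label did. Within numbers the 3 h level under the knockout label was 0.606 and 0.651 of the untreated level. The differences were -0.46 at 1 h (SE 0.187, limma adjusted p = 0.515) and -0.66 at 3 h (SE 0.187, limma adjusted p = 0.0539). The 1 h value was -0.27 without number 1 of the 1 h knockout label and -0.66 without number 2. With the replicate block the 3 h difference passed (limma adjusted p = 0.00557). It was also called after median-of-ratios scaling (-0.53, limma adjusted p = 0.0389). With a pseudocount of 0.1 and with no filter it was not (limma adjusted p = 0.0552 and 0.0662). Over the 18 alternatives it was called in 5. It was -0.50 and -0.83 without number 1 and number 2 of the 3 h knockout label. Both Cop1 and Usp7 lay below the all-gene median of -0.12 in that comparison.

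**Figure D2:**
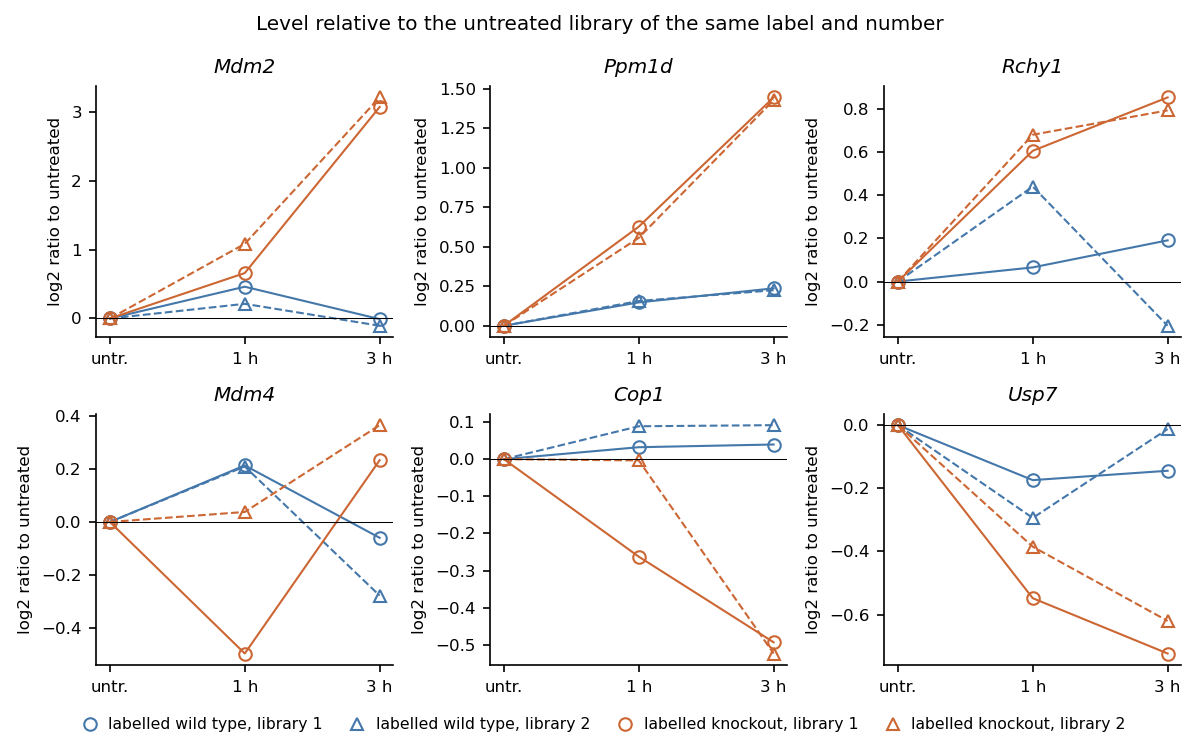
Log2 ratio of each library to the untreated library of the same label and number (y axis, a separate scale for each gene) against time (x axis; blue, labelled wild type; orange, labelled knockout; solid line with circles, library 1; dashed line with triangles, library 2). Both knockout-labelled lines end above 0 for Mdm2, Ppm1d, Rchy1 and Mdm4 and below 0 for Cop1 and Usp7.

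Counted together, 2 of the 6 genes (Mdm2 and Ppm1d) were called at 3 h against untreated under the knockout label, both higher. Among all genes tested 12.1% were called in that comparison, 6.25% higher and 5.87% lower. With the replicate block 5 of the 6 were called, 3 higher and 2 lower, and the background was 29.2%, with 11.1% higher and 18.1% lower. From 1 h to 3 h under this label 2 of the 6 were called, against 11.2% of all genes, and 4 with the block, against 29.1%. At 1 h against untreated 0 of the 6 were called, against 0.103% of all genes, and 2 with the block, against 0.914%. With the wild-type label limma called 0 of the 6 and 0% of all genes at 1 h, at 3 h and between 1 h and 3 h. The counts of all genes at an unadjusted p under 0.05 were 618, 524 and 928 there, and with the block 0, 24 and 13 genes passed, none of them among the 6. The comparisons of 1 h and of 3 h with untreated share the same untreated libraries.

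Compared between the labels, Mdm2 and Ppm1d were higher under the knockout label at 3 h. Of the 6 genes, limma called 0 between untreated libraries of the knockout and the wild-type label, against 0.0193% of all genes, and 0 at 1 h, against 0.0386%. At 1 h the knockout label exceeded the wild-type label by 0.49 for Mdm2 and 0.47 for Ppm1d (limma adjusted p = 1 for both), and by 0.25 and 0.51 without both 1 h libraries numbered 2. At 3 h 2 of the 6 were called, against 10.3% of all genes. Mdm2 was higher under the knockout label by 3.12 (limma adjusted p = 2.051e-05) and Ppm1d by 1.22 (limma adjusted p = 0.000478). The other 4 genes differed by 0.69 (Rchy1), 0.54 (Mdm4), -0.43 (Cop1) and -0.59 (Usp7). Their limma adjusted p-values were 0.524, 0.472, 0.105 and 0.0858, and 0.0178, 0.0341, 0.0120 and 0.00984 with the replicate block. Over the alternatives these differences ran from 0.23 to 1.16 (Rchy1) and 0.21 to 0.86 (Mdm4), both ends reached by leaving out number 2 or number 1 of the 3 h knockout label. Cop1 ran from -0.51, without number 1 of the 3 h wild-type label, to -0.25 after median-of-ratios scaling. With the block all 6 were thus called, 4 higher and 2 lower, against 28.1% of all genes. Trp53 itself goes against these labels in most pairs, as stated above, but was called at no time between them. Its difference was -0.10 untreated, 1.38 at 1 h and 1.52 at 3 h. At 3 h its limma adjusted p was 0.118, and 0.0523 with the replicate block.

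The difference of the 3 h responses under the 2 labels was tested as an interaction. It was 3.16 for Mdm2 (SE 0.214, limma adjusted p = 0.000364) and 1.18 for Ppm1d (SE 0.172, limma adjusted p = 0.00816). These were 2 of the 6 genes, against 3.45% of all genes. The interaction of Ppm1d fell just short of the threshold without the 3 h library labelled wild type numbered 1 (1.16, limma adjusted p = 0.0511) and without number 2 of the untreated wild-type label (1.16, limma adjusted p = 0.0514). The other interactions were 0.80 for Rchy1, 0.45 for Mdm4, -0.57 for Cop1 and -0.59 for Usp7. Their limma adjusted p-values were 0.750, 0.818, 0.222 and 0.340. The interaction of Rchy1 was 0.31 and 1.28 without number 1 and 2 of the untreated knockout label, and that of Mdm4 was 0.77 and 0.13 without number 1 and 2 of the 3 h knockout label. With the block Cop1 passed as well (limma adjusted p = 0.0306), which made 3 of the 6, against 13.4% of all genes. At 1 h the interaction was 0.52 for Mdm2 and 0.43 for Ppm1d, each with a limma adjusted p of 1, and 0.28 and 0.47 without both 1 h libraries numbered 2. At that time 0 of the 6 and 0.00644% of all genes were called.

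**Figure D3:**
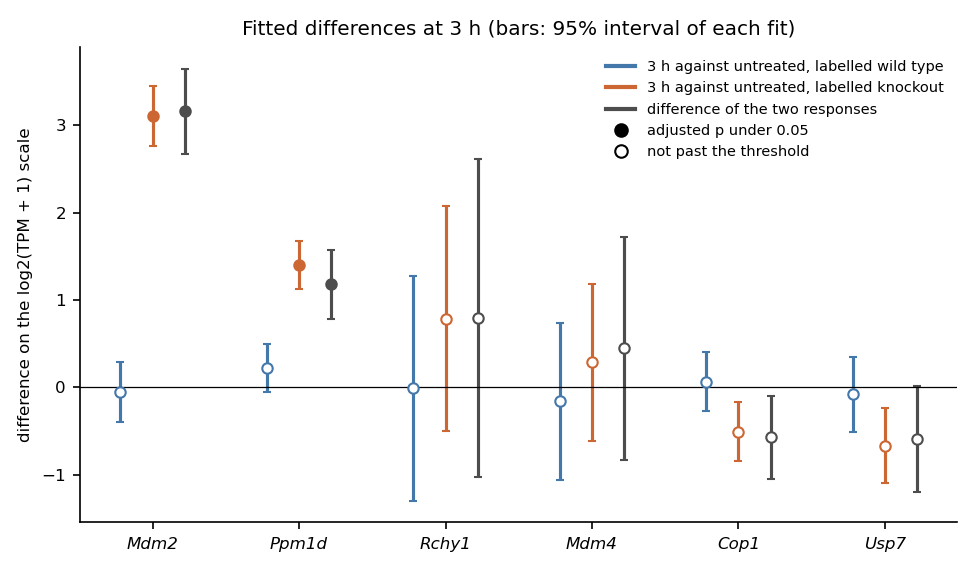
Fitted differences on the log2(TPM + 1) scale (y axis) for each of the 6 genes (x axis) at 3 h against untreated under the wild-type label (blue) and the knockout label (orange), and the difference of these responses (grey), with 95% intervals from the fit without a block. Filled points (adjusted p under 0.05) are those of Mdm2 and Ppm1d under the knockout label and in the difference of responses, while the intervals of Rchy1 and Mdm4 span 0.

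Between genes, TPM can be compared because it is scaled per transcript length. Before irradiation Cop1 and Usp7 were the most abundant of the 6, at 113 to 136 TPM over the 4 untreated libraries, ahead of Mdm2 at 33.1 to 36.1, Ppm1d at 22.4 to 23.8, Mdm4 at 16.3 to 25.6 and Rchy1 at 11.7 to 24.4 TPM. The last 3 genes overlapped in these ranges. At 3 h under the knockout label Mdm2 was the most abundant of the 6 in both libraries. Mdm2 then made up 52.1% and 48.9% of the summed TPM of the 6 genes, against 8.81% to 17.7% in the other 10 libraries. The sum itself was 564 and 625 TPM there, against 312 to 407 TPM in the others.

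Ratios within a library changed accordingly. Mdm2 transcript per Mdm4 transcript, the balance of the ligase and its partner, was 14.2 and 9.27 in the 3 h libraries labelled knockout. It was 1.98 and 1.29 in the untreated libraries of that label, 4.41 and 2.66 at 1 h, and 1.49 to 2.45 in the 6 libraries labelled wild type. Mdm2 per Usp7 transcript was 4.28 and 3.53 at 3 h under the knockout label and 0.248 to 0.713 in the other 10 libraries. Mdm2 per Cop1 transcript was 3.05 and 3.24 there and 0.244 to 0.517 elsewhere. Mdm2 thus passed both Usp7 and Cop1 only in these 2 of the 12 libraries. Mdm2 per Ppm1d transcript was 4.63 and 4.78 there and 1.24 to 2.00 in the other 10 libraries. These are ratios of transcripts, and protein was not measured.

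In the untreated libraries Mdm2 varied by 1.09-fold while Trp53 varied by 3.35-fold. Untreated libraries at 265, 211, 114 and 79.1 TPM of Trp53 held 34.9, 36.1, 33.7 and 33.1 TPM of Mdm2. The irradiated libraries labelled knockout held 210 to 250 TPM of Trp53 at both times, with 55.2 and 70.1 TPM of Mdm2 at 1 h and 293.5 and 306 TPM at 3 h. The irradiated libraries labelled wild type held 66.8 to 114 TPM of Trp53 and 33.5 to 46.3 TPM of Mdm2. Mdm2 per Trp53 transcript was 1.21 and 1.39 at 3 h under the knockout label and 0.132 to 0.627 in the other 10 libraries. Ppm1d per Trp53 transcript did not single out these libraries: it was 0.262 and 0.291 there and 0.0878 to 0.397 elsewhere.

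**Figure D4:**
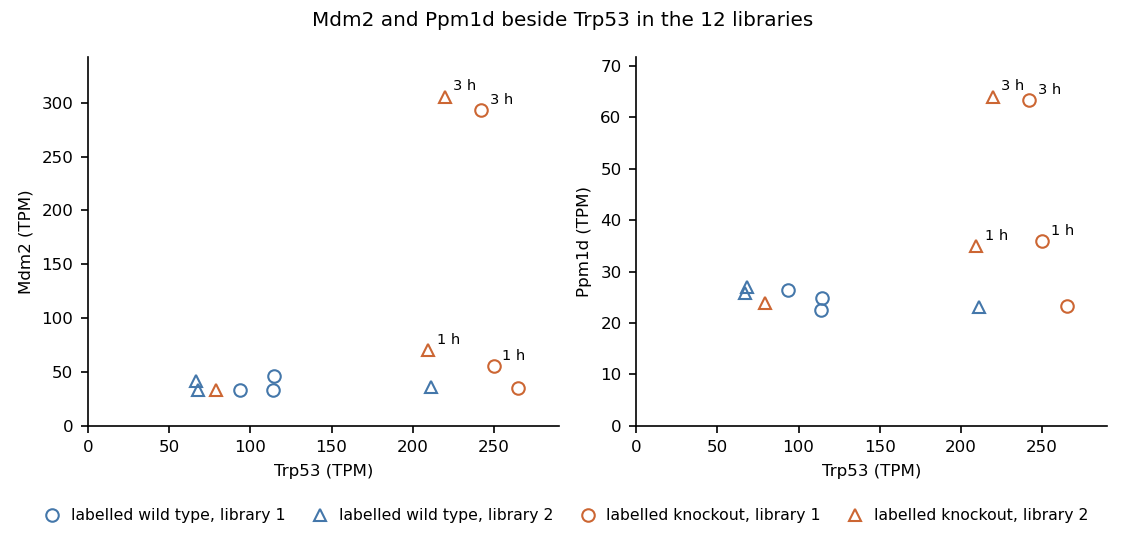
Mdm2 (left, y axis, TPM) and Ppm1d (right, y axis, TPM) against Trp53 (x axis, TPM) in the 12 libraries (blue, labelled wild type; orange, labelled knockout; circles, library 1; triangles, library 2; the irradiated libraries labelled knockout carry their time). Libraries with more than 200 TPM of Trp53 hold from 34.9 to 306 TPM of Mdm2.

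Across the 12 libraries, the Pearson correlation of log2(TPM + 1) was 0.97 between Mdm2 and Ppm1d, 0.83 between Mdm4 and Rchy1 and 0.77 between Cop1 and Usp7. Mdm2 went with Cop1 at -0.86 and with Usp7 at -0.79. These points share groups and library numbers, so the coefficients only describe the libraries. Both 3 h libraries labelled knockout lay above all others in Mdm2 and Ppm1d. A coefficient with either gene therefore depends largely on the level in those libraries. The genes most like Mdm2 among all tested were Snx20, Dnajb5, Cxcl1, Mapkapk3 and Ei24 (0.989 to 0.987). Of these, Snx20 ranged from 0 to 5.36 TPM and Cxcl1 from 0 to 1.35 TPM. Those most like Ppm1d were Pmaip1, the gene of the death-promoting protein NOXA, and Lif, a cytokine (0.992 and 0.985). Lif ranged from 0 to 18.1 TPM. Rchy1 was most like Rps27l and Slc25a20 (both 0.984) and Mdm4 most like Zfand1 and Tspan12 (0.974 and 0.956). Cop1 was most like Vps26b and Dcaf13 (0.963 and 0.962) and Usp7 most like Ccdc6 and Cand1 (0.986 and 0.984).

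Other genes of the pathway were counted in lists for the same comparison, 3 h against untreated under the knockout label, where the median of all genes was -0.12. Of 16 genes listed as other feedback targets of p53, 8 were called higher and 1 lower, with a median of 0.62. Among all genes 6.25% were called higher and 5.87% lower. Whether each of the 16 acts on p53 was not tested. The list holds Ccng1 and Fbxw7, which the series title names, so it is not independent of the study. Sesn2, a stress-induced inhibitor of mTOR signalling, rose from 9.75 ± 0.594 to 232 ± 35.9 TPM (SD, n = 2) and by 4.43 in the fit. Trp53inp1, a cofactor of p53 in cell death and autophagy, rose from 3.63 ± 0.679 to 213 ± 68.5 TPM (SD, n = 2). Ptprv, a phosphatase gene induced by p53, rose from 0.0300 to 42.8 ± 9.87 TPM, with 0.0300 TPM in both untreated libraries. Besides the 3 h libraries labelled knockout it reached 1 TPM only in the 1 h library of that label numbered 1 (1.18 TPM). Elsewhere it was at most 0.77 TPM. It is counted among the 8, although it passed the filter only through irradiated libraries labelled knockout. Trim8, a ligase named here after its values were seen because it alone was called lower, changed by -0.70 (limma adjusted p = 0.0362). Siah1a and Siah1b, further ligases of this list that were also named with their values known, differed by 0.06 and -0.03 without a call.

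Of 24 further p53 targets with no listed action on p53, 18 were called higher and 0 lower, with a median of 2.45, against the same background. Cdkn1a, the cell cycle inhibitor p21, rose from 6.13 ± 1.06 to 472 ± 38.5 TPM (SD, n = 2). Pmaip1 rose from 1.56 ± 0.460 to 228 ± 15.3 TPM, and Tap1, a peptide transporter of antigen presentation, from 0.390 ± 0.0707 to 47.6 ± 4.60 TPM (SD, n = 2). Their fitted log2 fold changes were 6.06, 6.49 and 5.13, beside 3.10 for Mdm2, from lower untreated levels. Among wild-type-labelled libraries 0 of these 24 and 0 of the 16 listed feedback targets were called at 1 h or at 3 h. At both times 0% of all genes were called under that label, so these counts are not particular to the targets. The interaction at 3 h was called for 17 of the 24 and 7 of the 16, in each case with the larger response under the knockout label, against 3.45% of all genes in either direction.

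Other regulators of p53 and of MDM2 are read against the share of all genes in this comparison, 12.1% called without the block, and 11.1% higher and 18.1% lower with it. Of 21 other ligases and modifiers acting on p53, 0 were called without the block, and 0 were higher and 9 lower with it (median -0.29). In the comparison of the labels at 3 h, Topors, a ubiquitin and SUMO ligase, was lower under the knockout label (-0.71, limma adjusted p = 0.0462). Of 25 cofactors of MDM2 and MDM4, 1 was called higher and 1 lower, and 1 higher and 9 lower with the block (median -0.28). The one that rose was Usp2, a deubiquitinase of MDM2, from 6.70 ± 0.566 to 33.3 ± 6.45 TPM (SD, n = 2, limma adjusted p = 0.00412). The one that fell was Gnl3, the nucleolar protein nucleostemin, from 161 ± 13.5 to 82.8 ± 7.71 TPM (SD, n = 2, limma adjusted p = 0.00615). Of 17 kinases, acetylases and cofactors that activate p53, 3 were called higher and 0 lower, with a median of -0.32, and 3 higher and 5 lower with the block. Chek2, a checkpoint kinase that phosphorylates p53, rose from 19.4 ± 0.820 to 43.0 ± 0.134 TPM (SD, n = 2), and its interaction was 1.34 (limma adjusted p = 0.0111). The other risers were Ppp1r13b (ASPP1), by 0.68, and Ppp1r13l, by 0.82, and the latter encodes iASPP, an inhibitor of p53 rather than an activator. Of the 13 tested relatives of Ppm1d among 14 PPM phosphatases and related genes, 0 were called (median -0.20), and 1 was higher and 2 were lower with the block.

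**Figure D5:**
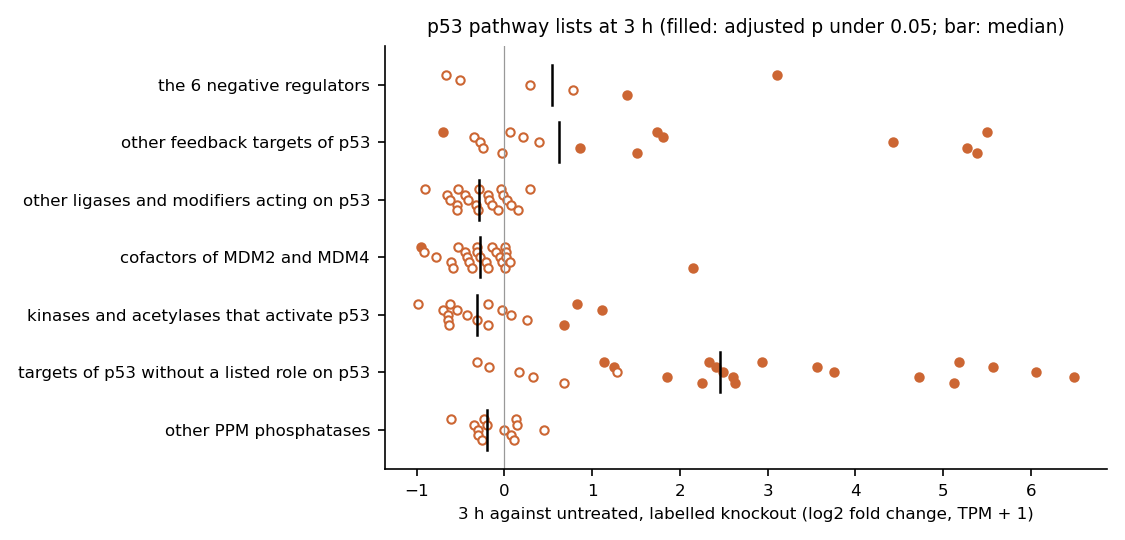
Fitted log2 fold change on TPM + 1 (x axis) at 3 h against untreated in the libraries labelled knockout for the genes of each list (y axis), with filled points for an adjusted p under 0.05 and a bar at the median of each list. Filled points lie mostly to the right in both lists of p53 targets, with medians of 0.62 and 2.45, and the ligases and modifiers hold none.

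Marker genes of cell types also differed between groups, and not only where Mdm2 and Ppm1d were called. In the 3 h libraries labelled knockout the 5 neural progenitor markers summed to 112.4 to 114.3 TPM, against 274.9 to 286.6 TPM in the untreated libraries of that label. The 4 somite markers summed to 43.1 to 50.5 TPM, against 63.0 to 90.2 TPM, and the 4 neural crest markers to 50.4 to 51.7 TPM, against 76.6 to 99.3 TPM. The 4 neuron markers summed to 35.6 to 39.7 TPM, against 40.9 to 79.0 TPM. The 4 endothelial markers summed to 152.3 to 156.5 TPM, against 111.3 to 125.9 TPM, and the 4 visceral endoderm markers to 124.7 to 328.5 TPM, against 12.6 to 102.1 TPM. The 5 primitive erythroid markers summed to 11075 to 13355 TPM there, against 1931 to 5010 TPM, and the 5 cardiac muscle markers to 2404 to 2669 TPM, against 1416 to 1904 TPM. For the wild-type label at 3 h the neural progenitor markers summed to 245.2 to 297.5 TPM, against 261.9 to 267.4 TPM untreated. The erythroid markers summed to 4518 to 6530 TPM, against 5803 to 5994 TPM. At 1 h under that label the erythroid markers summed to 8566.5 to 10564.2 TPM. The neuron markers then summed to 116.8 to 161.9 TPM, against 72.3 to 72.9 TPM untreated. The neural crest markers were at 48.3 to 58.0 TPM, against 73.0 to 74.1 TPM. The somite markers overlapped, at 92.4 to 98.3 TPM against 76.0 to 105.6 TPM. Posterior Hox genes, which mark more posterior and later tissue, summed to 82.0 to 109.3 TPM in the 1 h libraries of both labels. They summed to 11.8 to 17.2 TPM in the untreated and 19.4 to 24.9 TPM in the 3 h libraries labelled knockout, and to 55.2 to 78.4 TPM in the untreated and 3 h libraries labelled wild type. The part of these shifts in the levels of the 6 genes was not tested. In whole embryos, fewer cells of a type and less RNA per cell cannot be told apart.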

How the data were processed

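Polyadenylated RNA of 12 libraries in 6 groups was sequenced with paired reads of 75 bp, per the labels' protocols. The authors deposited TPM values for 53647 gene IDs, which sum to 999999.1 to 1000000.8 in each library and so keep no depth. Tools listed without a role in the submitters' processing notes are RSEM 1.3.3, STAR 2.7.3a, R 4.3.3, DESeq2 1.42.1 and HTSeq 0.12.3, with the build GRCm39. No count model was used here, because the values are not counts.

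Symbols came by gene ID from a GRCm38 annotation, which matched 52093 IDs (97.1%). Genes with at least 1 TPM in at least 2 libraries were tested with limma 3.58.1 in R 4.3.3 on log2(TPM + 1), with 1 mean per group, a trend in the spread, 6 residual degrees of freedom (5 with the replicate block) and Benjamini-Hochberg adjustment at 0.05 in each of 11 comparisons. The fit was also run on simulated data with independent noise and no effect of library number, so that run does not cover such an effect. Plots used matplotlib 3.10.9 in Python 3.11.15.

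The library numbers come from the labels. Deviations of same-numbered libraries from their group means correlated at 0.327 to 0.796 over genes in all 15 pairs of groups, so a fit with the number as a block was set beside the main one. Libraries of a group correlated at 0.935 to 0.974 over genes, with at most 1.10% identical values, and none was counted as a copy.

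The 6 genes, the pathway lists and the marker lists were chosen with earlier results of these data known. Named besides are up to 3 called genes per pathway list with the smallest p at 3 h under the knockout label, up to 2 in any other comparison, and the genes most correlated with each of the 6, leaving out clone-like names. Alternatives were a pseudocount of 0.1, no filter, median-of-ratios size factors, the block and leaving out each library. Leaving out both 1 h or both untreated libraries numbered 2 was added after seeing the data. RefSeq promoter windows on GRCm38.p6 were used for sequences only.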

Additional observations from a re-analysis of the deposited data

Results flagged for a closer look

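The 3 h responses of Mdm2 and Ppm1d differed between the labels by a test of the difference itself. The interaction on the log2(TPM + 1) scale was 3.16 for Mdm2 (SE 0.214, limma adjusted p = 0.000364) and 1.18 for Ppm1d (SE 0.172, limma adjusted p = 0.00816), in both with the larger response under the knockout label. The ratio of 3 h to untreated Mdm2 was 8.40 and 9.25 in the numbers 1 and 2 of the knockout label and 0.994 and 0.929 in those of the wild-type label. For Ppm1d the ratios were 2.72 and 2.69 against 1.18 and 1.17. Trp53 transcript goes against the genotype labels in 5 of 6 pairs of libraries, so the direction of both differences rests on labels that this check did not bear out. No group holds enough libraries for a test of single outlying values.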

How the results depend on the processing

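The 6 genes were recounted in 11 comparisons under 18 alternatives, and 190 of 198 counts stayed within 1.5 times the main one. In most of these comparisons, among them all those within the wild-type label, the main count was 0. A count that stayed at 0 was taken as the same, so this share says little on stability. The replicate block raised the number called at 1 h from 0 to 2, at 3 h from 2 to 5 and from 1 h to 3 h from 2 to 4 under the knockout label, and between the labels at 3 h from 2 to 6. It changed no other count by more than 1.5 times. Leaving out both 1 h libraries numbered 2 raised the 3 h count to 4, with Cop1 and Usp7 called (limma adjusted p = 0.0418 and 0.0454), and the spread is then estimated from fewer libraries. The 3 h interaction was called in 1 to 2 of the 6 genes when single libraries were left out, and in 1 without both untreated libraries numbered 2 (Ppm1d 1.17, limma adjusted p = 0.156). Where 1 library was left in a group, it was taken to vary like the other groups. The fold changes of the 6 genes were recomputed in all 11 comparisons, and only a chosen 33 that are printed are counted here. Of the 594 values, 572 kept their direction and side of the threshold, 3 lost and 17 gained a call, and 2 reversed. Both reversals were of Mdm4 under the knockout label. At 3 h against untreated it ranged from -0.035 to 0.61 on leaving out single libraries, and from 1 h to 3 h from -0.0062 to 1.01. At 3 h under the knockout label Mdm2 (3.06 to 3.24) and Ppm1d (1.38 to 1.53) were called in all 18 alternatives. Over all genes the block raised the calls from 16 to 142 at 1 h, from 1883 to 4534 at 3 h, from 1740 to 4525 between these times, from 1603 to 4371 between the labels at 3 h and from 536 to 2078 for the 3 h interaction. The lowest counts on leaving out single libraries were 2 at 1 h (number 2 of the untreated knockout label), 820 at 3 h and 723 between these times (number 1 and number 2 of the 3 h knockout label), and 585 between the labels and 224 for the interaction (both number 1 of the 3 h wild-type label). Sequencing depth is not known from TPM, so its limits on low values cannot be given.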
